A study of Mus musculus with 8 samples.

Results

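The DNA methylation and demethylation enzymes were taken as 8 genes, Dnmt1, Dnmt3a, Dnmt3b, Uhrf1, Tet1, Tet2, Tet3 and Tdg, in mRNA of Lgr5-GFP+ intestinal cells. They were found by gene symbol in the deposited table and joined by Ensembl identifier to the raw read counts, and all 8 were found among 53801 genes. All 8 also passed the filter on low counts, as did 16445 genes in total. Per the study's methods and labels, a library came from 300 cells sorted from 1 mouse. All mice carried Lgr5-EGFP-IRES-CreERT2, which places Cre in Lgr5+ stem cells, and a β-catenin allele whose exon 3 is removed by Cre to give β-catGOF, an active β-catenin. Of the mice, 4 were labelled β-catGOF; Mll1-/-, with both Mll1 alleles floxed, and 4 were labelled β-catGOF; Mll1+/-, with 1 floxed allele, and the latter served as the control. Mice were 4 to 6 weeks old at the first of 3 daily injections of tamoxifen at 50 mg/kg, and crypts were collected 10 days after induction. The cells were stained for EpCAM, an epithelial surface protein, CD45, a leukocyte surface protein, and CD24, and with a dead cell stain. No library lacked β-catGOF, so the comparison is between 2 Mll1 genotypes on a β-catGOF background. Recombination by this Cre is mosaic, and recombined and unrecombined cells cannot be told apart in a pool of cells.

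DNA methylation in mammals is written on the cytosine of CpG sites. Dnmt3a and Dnmt3b methylate unmethylated DNA, whereas Dnmt1 copies the marks to the new strand after replication. Uhrf1 binds hemimethylated DNA and brings Dnmt1 to it. The Tet enzymes oxidize methylcytosine, and the glycosylase Tdg removes the oxidized bases so that base excision repair can restore an unmodified cytosine. In the intestine Dnmt1 is known for maintaining methylation in the dividing crypt cells. Mll1, encoded by Kmt2a, methylates histone H3 at lysine 4 and holds a CXXC domain that binds unmethylated CpG, a domain type that Dnmt1, Tet1 and Tet3 also have.

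Depth was between 14468751 and 16847793 counts on genes per library, and mitochondrial genes held 17.1 to 30.1% of them. The mitochondrial share was 18.9, 22.3, 17.1 and 27.1% in J_7075, J_7096, J_7135 and J_7136, labelled Mll1-/-, and 24.9, 28.7, 30.1 and 23.3% in J_7079, J_7100, J_7134 and J_7139, labelled Mll1+/-, so that 3 of the 4 former lay below every control, and its part in the results was not tested. Expression values are CPM, in which a gene's counts are set against the TMM-scaled total of the library, and 3 counts, taken as the floor, lay between 0.162 and 0.241 CPM. Smart-seq2 libraries carry no molecular identifiers, so floors and counting errors cover counting error only. Kmt2a was not lower in the libraries labelled Mll1-/- (63.5 ± 10.7 CPM, SD, n = 4) than in those labelled Mll1+/- (53.8 ± 7.45 CPM, SD, n = 4), with a log2 fold change of 0.24 (SE 0.17) and an adjusted p of 0.71 in edgeR. Therefore groups are named by their labels throughout, and this count does not check them, because counts over the whole gene do not separate the deleted exons from the others. Ctnnb1, which encodes β-catenin, had a log2 fold change of 0.10 (SE 0.13, edgeR adjusted p = 0.86). Lgr5 had 261 CPM in libraries labelled Mll1-/- and 271 CPM in those labelled Mll1+/-, and Epcam had 1516 and 1356 CPM, whereas Ptprc, which encodes CD45, had 36 counts over all 8 libraries. The animal numbers formed 2 sets with 2 mice of each genotype in each, a first set of J_7075, J_7079, J_7096 and J_7100 and a second set of J_7134, J_7135, J_7136 and J_7139. The library of J_7135 stood apart, with a highest Spearman correlation of 0.909 with any other library, against 0.947 or more for the others, and it held both Xist (208 CPM) and the Y-linked Ddx3y (19.8 CPM). Whether this library came from more than 1 mouse cannot be told from the counts, and the members' values without it are given with them. Sex was not labelled, and Xist and Ddx3y differ with it. In the first set J_7075 and J_7096, labelled Mll1-/-, had 0.649 and 2.84 CPM of Xist and 81.3 and 97.4 CPM of Ddx3y. The controls J_7079 and J_7100 had 523 and 517 CPM of Xist and 0.06 and 0.07 CPM of Ddx3y. Within the first set, differences between the genotypes therefore cannot be told apart from differences between the sexes. Fewer cells of a type and less RNA per cell cannot be told apart in these pools.

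Several members have near-identical copies elsewhere in the genome, and only uniquely mapped reads were counted. Of all 31-base words in the annotated transcripts of Tdg, 48.0% also occurred in transcripts of other genes, mostly the processed pseudogenes Tdg-ps, Gm9855 and Gm5597. For Uhrf1 the share was 24.3%, mostly with the processed pseudogene Gm5648, and for Dnmt3b it was 13.5%, all with Dnmt3c, a neighbouring methyltransferase gene known from the male germline. The other 5 members shared under 2% of their words. The coding stretches below, of 60 bases each, are the same in the member and its copy, and they are shown because a read that lies within such a stretch has no unique position. No base is in capitals since no base differs.
Tdg, exon 2, chr10:82638782-82638841 (GRCm38, + strand), as in Tdg-ps: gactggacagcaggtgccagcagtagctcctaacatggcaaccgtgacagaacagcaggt
Uhrf1, exon 6, chr17:56312864-56312923 (GRCm38, + strand), as in Gm5648: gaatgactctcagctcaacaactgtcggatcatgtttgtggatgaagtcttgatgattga
Dnmt3b, exon 9, chr2:153670334-153670393 (GRCm38, + strand), as in Dnmt3c: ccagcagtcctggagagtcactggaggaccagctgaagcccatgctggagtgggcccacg
Over whole transcripts, with untranslated parts, the longest identical run was 756 bases between Tdg and Gm9855 and 364 bases between Tdg and Tdg-ps. It was 194 bases between Uhrf1 and Gm5648 and 287 bases between Dnmt3b and Dnmt3c. Over the 8 libraries Tdg had 1194 counts, whereas Tdg-ps had 121, Gm9855 had 117 and Gm5597 had 151. Uhrf1 had 5646 counts and Gm5648 had 211. Dnmt3b had 585 counts and Dnmt3c had 3. Levels of Tdg, Uhrf1 and Dnmt3b are therefore uncertain in height, while each gene is compared with itself between the genotypes. Exons of Tdg shared 6.83% of their bases with Glt8d2 on the opposite strand, and reads were counted without strand.

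The members were compared between the genotypes to ask whether the level of any methylation or demethylation enzyme differed with the Mll1 label. None of the 8 members was called at an adjusted p under 0.1 in edgeR's quasi-likelihood test, where 14 of 16445 genes (0.0851%) were called, 0.0486% with a higher and 0.0365% with a lower level. DESeq2 called none of the 8 either, with 2.45% of 21094 genes called. Dnmt1 was the 1 member of 8 with an unadjusted p under 0.05 in edgeR, a threshold that 1505 genes (9.15%) passed, 5.4% with a higher level in the libraries labelled Mll1-/-. Dnmt1 was also the 1 member of 8 whose libraries did not overlap between the genotypes, as was the case for 1032 genes (6.28%), of which 549 (3.34% of all tested) had the libraries labelled Mll1-/- above and 2.94% had them below. Of the members, 6 had a higher fitted level in the libraries labelled Mll1-/- and 2 a lower one, with a median log2 fold change of 0.22, and 50.8% of all genes tested were higher with a median of 0.01. The shares are given beside those of all genes as a description, and a count of 1 in 8 sets nothing apart. The summed CPM of the 8 members lay between 266 and 302 in the libraries labelled Mll1-/- and between 224 and 242 in the others. Most of this sum was Dnmt1, Tet3 and Uhrf1, with means of 87.6, 49.4 and 44.6 CPM over the 8 libraries. How often sums of other genes separate the genotypes was not computed, so the sum does not describe each member.

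**Figure D1:**
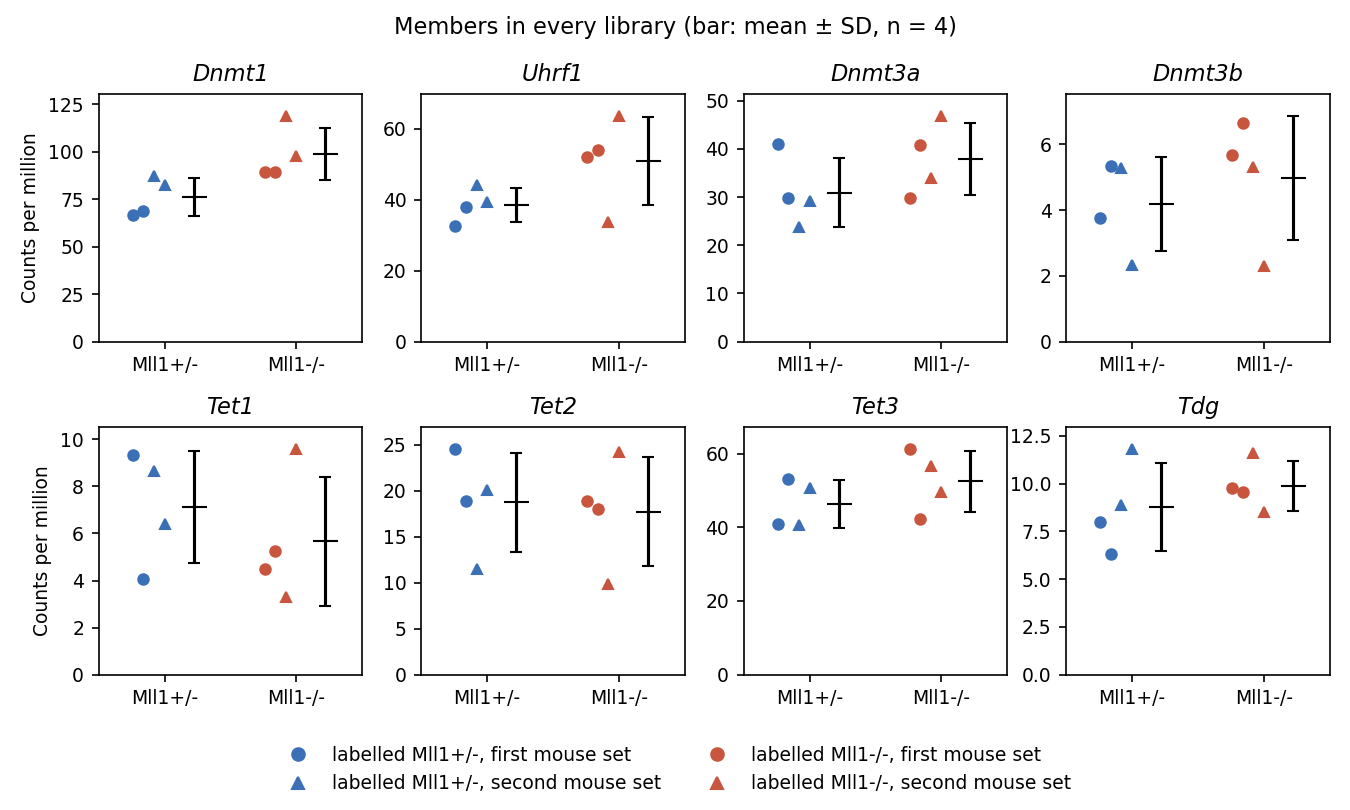
CPM (y axis, from 0) of each member in every library, by labelled genotype, with the mean ± SD of 4 libraries beside the points and the mouse set given by the marker. The genotypes are apart without overlap only for Dnmt1, and the lowest library labelled Mll1-/- of Uhrf1 is J_7135 at 33.7 CPM.

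In the following, values of the libraries labelled Mll1-/- are in the order J_7075, J_7096, J_7135 and J_7136, and those of the libraries labelled Mll1+/- in the order J_7079, J_7100, J_7134 and J_7139. The maintenance enzyme Dnmt1 (ENSMUSG00000004099, chromosome 9, 20907209 to 20959888, minus strand, GRCm38) had 89.6, 89.5, 119 and 97.9 CPM in the libraries labelled Mll1-/-. It had 66.7, 68.6, 87.2 and 82.4 CPM in those labelled Mll1+/-. All 4 libraries labelled Mll1-/- lay above all 4 of the others, but J_7096 at 89.5 CPM and J_7134 at 87.2 CPM were neighbours. The means were 99.0 ± 13.8 and 76.2 ± 10.1 CPM (SD, n = 4 each). This gave a log2 fold change of 0.38 (SE 0.15, 95% interval 0.04 to 0.71), a fold of 1.30 with an interval of 1.03 to 1.64. The unadjusted p was 0.031 and the adjusted p was 0.50 in edgeR. The difference was 0.40 in the first mouse set and 0.35 in the second. In the two-sided exact permutation test over 70 assignments the p was 0.029, the smallest this design can give, but it was 0.057 with upper quartile scaling. The unadjusted p in edgeR was 0.085 without J_7079, 0.080 without J_7100 and 0.079 without J_7135.

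Uhrf1, the partner that targets Dnmt1 to hemimethylated sites (ENSMUSG00000001228, chromosome 17, 56303321 to 56323486, plus strand), had 51.9, 54.0, 33.7 and 63.5 CPM in the libraries labelled Mll1-/-. It had 32.5, 38.0, 44.0 and 39.4 CPM in the libraries labelled Mll1+/-. Of the libraries labelled Mll1-/-, 3 lay above every control and J_7135 lay below all but the lowest control. The log2 fold change was 0.40 (SE 0.21, 95% interval -0.07 to 0.87, edgeR adjusted p = 0.61), with an exact permutation p of 0.11. Without J_7135 it was 0.55, with an edgeR unadjusted p of 0.0064 and an adjusted p of 0.26. The difference was 0.59 in the first mouse set and 0.15 in the second, which holds J_7135, and the test of this difference between sets gave an adjusted p of 0.92 in edgeR.

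Dnmt3a, a de novo methyltransferase (ENSMUSG00000020661, chromosome 12, 3806007 to 3914443, plus strand), had 29.9, 40.9, 33.9 and 46.8 CPM in the libraries labelled Mll1-/-. In the controls it had 41.0, 29.7, 23.9 and 29.2 CPM. The highest control lay above 3 of the 4 libraries labelled Mll1-/-. The log2 fold change was 0.29 (SE 0.22, 95% interval -0.20 to 0.78, edgeR adjusted p = 0.74), and it was 0.003 in the first set and 0.59 in the second. Dnmt3b, the other de novo methyltransferase (ENSMUSG00000027478, chromosome 2, 153649450 to 153687730, plus strand), was low, with 5.66, 6.66, 5.30 and 2.30 CPM against 3.77, 5.34, 5.29 and 2.32 CPM in the controls. Each genotype held 1 library near 2.3 CPM, J_7136 and J_7139, both of the second set. Its log2 fold change was 0.25 (SE 0.42, 95% interval -0.69 to 1.2, edgeR adjusted p = 0.89). The lowest library had 35 counts of Dnmt3b, for which counting alone gives a coefficient of variation of 16.9% of the mean, and the fitted biological coefficient of variation, as a fraction of the mean, was 0.44.

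Of the Tet dioxygenases, Tet3 (ENSMUSG00000034832, chromosome 6, 83362373 to 83459084, minus strand) had 61.2, 42.3, 56.7 and 49.7 CPM in the libraries labelled Mll1-/- and 41.0, 53.2, 40.5 and 50.6 CPM in the controls. The ranges overlapped over most of their width. For Tet3 the log2 fold change was 0.18 (SE 0.17, 95% interval -0.20 to 0.56, edgeR adjusted p = 0.80). Tet2, which lacks a CXXC domain of its own (ENSMUSG00000040943, chromosome 3, 133463679 to 133545139, minus strand), had 18.9, 18.0, 9.84 and 24.2 CPM in the libraries labelled Mll1-/- and 24.5, 18.8, 11.5 and 20.1 CPM in the controls. J_7135 and J_7134 were low, and the other libraries of both genotypes covered the same range. The log2 fold change was -0.08 (SE 0.32, 95% interval -0.80 to 0.63, edgeR adjusted p = 0.96), and it was 0.12 without J_7135. Tet1 (ENSMUSG00000047146, chromosome 10, 62804570 to 62908996, minus strand) had 4.48, 5.27, 3.30 and 9.59 CPM in the libraries labelled Mll1-/- and 9.33, 4.08, 8.66 and 6.39 CPM in the controls. Of the libraries labelled Mll1-/-, J_7136 was the highest of all 8 and J_7135 the lowest of all 8. The log2 fold change was -0.33 (SE 0.41, 95% interval -1.24 to 0.58, edgeR adjusted p = 0.85), and it was -0.71 without J_7136.

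The glycosylase Tdg (ENSMUSG00000034674, chromosome 10, 82629828 to 82650799, plus strand) had 9.79, 9.56, 11.6 and 8.54 CPM in the libraries labelled Mll1-/- and 8.02, 6.33, 8.90 and 11.8 CPM in the controls. The spread was smaller in the former, and the highest value belonged to a control. For Tdg the log2 fold change was 0.17 (SE 0.26, 95% interval -0.41 to 0.75, edgeR adjusted p = 0.88), 0.44 in the first set and -0.04 in the second. Without J_7135 the log2 fold change was 0.08 for Tdg, 0.28 for Dnmt1, 0.34 for Dnmt3a, 0.23 for Dnmt3b, 0.14 for Tet3 and -0.15 for Tet1. For all 8 members, the test of a different change in the 2 mouse sets gave adjusted p-values of 0.82 or more in edgeR. The intervals left room for changes that the design could not call. The upper bound was a fold of 1.64 for Dnmt1, 1.82 for Uhrf1, 1.72 for Dnmt3a and 2.29 for Dnmt3b, and the lower bound was a fold of 0.423 for Tet1.

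**Figure D2:**
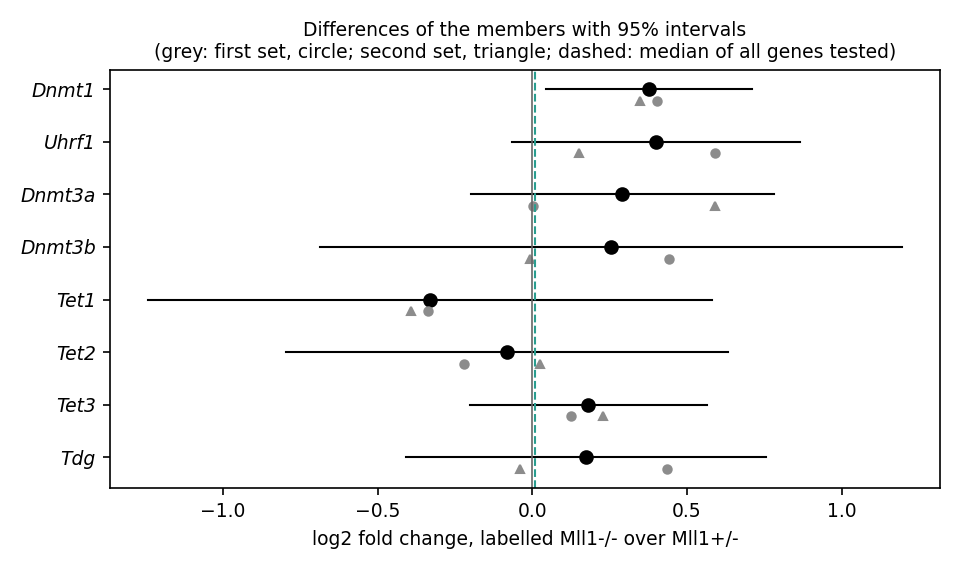
Log2 fold change (x axis, libraries labelled Mll1-/- over those labelled Mll1+/-) of each member as a black point with its 95% interval, with the difference within each mouse set in grey and the median of all genes tested as a dashed line. The interval of Dnmt1 (0.04 to 0.71) lies above 0, and those of the other 7 members include 0.

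Levels of different members were compared per length, as CPM per kb of the deposited gene length. This length joins all annotated exons of a gene, and the tests below cover the spread over libraries but not the choice of length. Dnmt1 had the highest level with 11.9 ± 2.24 CPM per kb (SD, n = 8), and more of the tested genes lay below it (74.9%) than above it. Uhrf1 followed with 10.5 ± 2.56 CPM per kb, and it was below Dnmt1 in 5 of 8 libraries (two-sided exact sign-flip test, adjusted p = 0.18 over 7 neighbouring pairs), so that the pair was not told apart. Tet3 was the third with 2.96 ± 0.458 CPM per kb, 3.49-fold below Uhrf1 by the geometric mean and below it in 8 of 8 libraries (adjusted p = 0.027, exact). Dnmt3a had 2.07 ± 0.465 CPM per kb, below Tet3 in 7 of 8 libraries (adjusted p = 0.036, exact). Tdg had 1.73 ± 0.339 CPM per kb and was not told apart from Dnmt3a (adjusted p = 0.20, exact). Tet2 had 1.08 ± 0.313 CPM per kb, below Tdg in 8 of 8 libraries (adjusted p = 0.027, exact). Dnmt3b had 0.897 ± 0.315 CPM per kb and was not told apart from Tet2 (adjusted p = 0.38, exact). Tet1 was the lowest with 0.413 ± 0.162 CPM per kb, below Dnmt3b in 7 of 8 libraries (adjusted p = 0.068, exact), and 7.55% of the tested genes lay below it. The order of the 8 means was the same in both genotypes. Without division by length, Tet2 (18.2 CPM) lay above Tdg (9.32 CPM), and Tet3 (49.4 CPM) lay above Uhrf1 (44.6 CPM).

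The height of Tdg and Uhrf1 depends on how their copies are handled. With the length reduced to the share of 31-base words found in no other gene, a choice made after seeing the data, Uhrf1 came first with 13.8 CPM per kb and Dnmt1 second with 12.1 CPM per kb. Tdg then moved from rank 5 to rank 3 with 3.33 CPM per kb, above Tet3 with 2.96 CPM per kb. Dnmt3b had 1.04 CPM per kb and kept rank 7, and Tet1 kept rank 8.

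**Figure D3:**
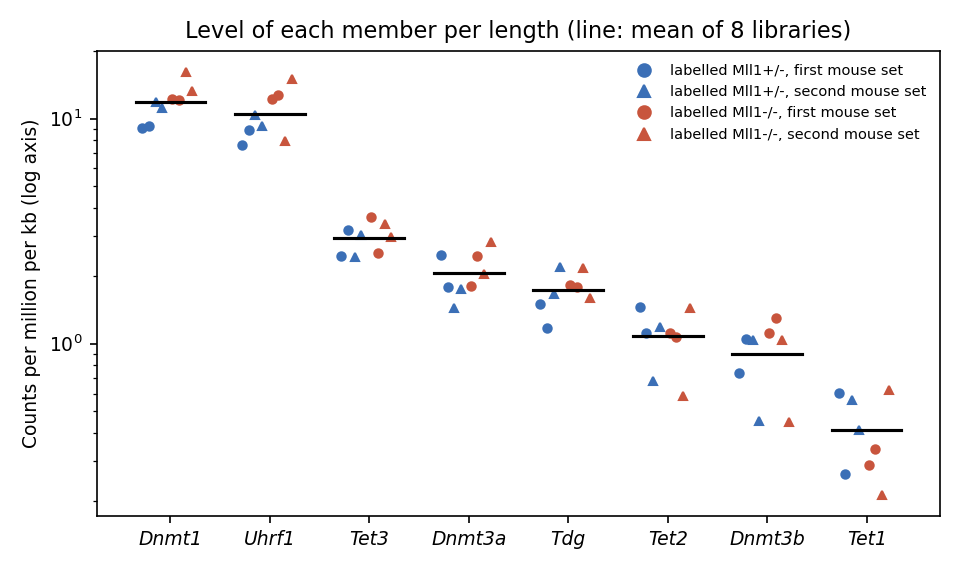
Level of each member in CPM per kb of gene length (y axis, log scale), 1 point per library, coloured by labelled genotype, with a line at the mean of 8 libraries. Dnmt1 and Uhrf1 lie about 10 CPM per kb, and Tet1 lies at the bottom with 0.413 CPM per kb.

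Within the families, 1 member held most of the level. Dnmt1 made up 73.8 to 84.0% of the summed Dnmt1, Dnmt3a and Dnmt3b level per length in the 8 libraries, and Dnmt3b 2.72 to 8.62%. The share of Dnmt1 was 80.3 ± 3.13% in the libraries labelled Mll1-/- and 79.2 ± 4.69% in the controls (SD, n = 4 each), a difference smaller than either spread. Tet3 made up 54.4 to 81.0% of the summed Tet level, Tet2 13.9 to 32.2% and Tet1 5.09 to 15.3%. The share of Tet3 was 69.2 ± 9.55% and 63.9 ± 6.64% in the same order, and the ranges overlapped. The ratio of Uhrf1 to Dnmt1 lay between 0.83 and 1.1 in 7 libraries and was 0.492 in J_7135, which had the highest Dnmt1 and the second lowest Uhrf1 of all 8 libraries. The ratio of the summed Dnmt to the summed Tet level lay between 2.97 and 4.57 in the libraries labelled Mll1-/- and between 2.66 and 3.90 in the controls.

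None of the genes that act with the maintenance enzymes was called, and Lig1 was the 1 gene of the list whose groups did not overlap. That is 1 of 9 tested, where 6.28% of all genes tested did not overlap, and it sets nothing apart. Of 10 listed maintenance cofactors 9 were tested, of which 5 had a higher and 4 a lower fitted level, and the median log2 fold change was 0.02, with -0.03 to 0.04 when a library was left out. Lig1, the DNA ligase that joins Okazaki fragments, had 96.8, 96.4, 122 and 188 CPM in the libraries labelled Mll1-/- and 64.0, 84.1, 79.6 and 84.8 CPM in the controls. The highest value was that of J_7136, and the log2 fold change was 0.69 (SE 0.22, edgeR adjusted p = 0.43). Cdca7, an activator of the remodeller Hells, had a log2 fold change of -0.04 (SE 0.16), and Hells had 0.08 (SE 0.18). Of the 7 de novo cofactors 4 were tested and none was called, with Trim28 at a log2 fold change of 0.21 (SE 0.12) and the H3K36 methyltransferase Nsd1 at 0.12 (SE 0.17). Dnmt3l, the catalytically inactive partner of the de novo enzymes, had 0 counts in all 8 libraries, which allows up to 0.162 to 0.241 CPM per library.

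The lists of methyl-CpG readers and of partners of the Tet enzymes each held 1 gene whose groups did not overlap. That is 1 of 10 and 1 of 9 tested, where 6.28% of all genes tested did not overlap, and it sets neither list apart. Of 10 genes of the reader list 8 had a higher and 2 a lower fitted level, with a median of 0.11 and none called. This median was 0.044 without J_7135 and 0.033 without J_7139. Mbd3, a subunit of the NuRD complex, was listed by its family and not by binding to methyl-CpG. It had 31.9, 31.7, 59.7 and 33.3 CPM in the libraries labelled Mll1-/- and 23.5, 25.2, 24.2 and 19 CPM in the controls. All 4 libraries labelled Mll1-/- lay above the controls, with J_7135 the highest, and the log2 fold change was 0.77 (SE 0.24, edgeR adjusted p = 0.42). The abundant readers Zbtb38 and Mbd2 had log2 fold changes of 0.02 (SE 0.12) and 0.05 (SE 0.15). Of 9 CXXC proteins and Tet partners 6 had a higher and 3 a lower fitted level, with a median of 0.20, which was 0.31 without J_7079. Ogt, the O-GlcNAc transferase that binds Tet2 and Tet3, had 126, 143, 234 and 201 CPM in the libraries labelled Mll1-/- and 266, 237, 237 and 300 CPM in the controls. Ogt was the member of this list with all 4 libraries labelled Mll1-/- below the controls, though J_7135 at 234 CPM was close to 2 controls at 237 CPM. The log2 fold change was -0.56 (SE 0.20, edgeR adjusted p = 0.47). The difference was -0.91 in the first set, where sex goes with the genotype, and -0.30 in the second. Kdm1a, a histone demethylase, had 0.20 (SE 0.16).

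Base excision repair completes the pathway that Tdg begins. Of 14 listed genes 13 were tested, of which 11 had a higher and 2 a lower fitted level, with a median log2 fold change of 0.27 and none called. The median was 0.16 without J_7135. Parp1, which senses strand breaks, had 67.8, 67.0, 70.5 and 62.9 CPM in the libraries labelled Mll1-/- and 59.9, 52.6, 44.5 and 54.9 CPM in the controls. The groups did not overlap, and the log2 fold change was 0.34 (SE 0.14, edgeR adjusted p = 0.50). Parp1 was the 1 gene of 13 without overlap, a share near the 6.28% of all genes tested. The glycosylase Neil3 had 0.20 (SE 0.35). Xrcc1, a scaffold of the repair complex, was the other gene of the list with an unadjusted p under 0.05 in edgeR, at a log2 fold change of 0.77 (SE 0.33, adjusted p = 0.53), and was named after its value was seen. These were 2 of 13 genes, compared with 9.15% of all genes tested. Of 7 deaminases and Gadd45 genes 5 were tested and none was called, with Apobec3 at 0.09 (SE 0.25) and Gadd45a at -0.42 (SE 0.23).

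The supply of the methyl donor and of the Tet cofactor was covered by 2 lists, and no gene of either was called. Of 14 methyl donor genes 11 were tested, of which 5 had a higher and 6 a lower fitted level, with a median of -0.18. The sign of this median turned when 1 library was left out, to 0.029 without J_7096 and 0.026 without J_7136, and the median was -0.037 without J_7135, -0.075 without J_7075, -0.057 without J_7079 and -0.12 without J_7139. Mat2a, which makes S-adenosylmethionine, had a log2 fold change of 0.05 (SE 0.20) and Ahcyl1, a relative of adenosylhomocysteinase, had -0.32 (SE 0.35). Ahcyl2, named after its value was seen, had an unadjusted p under 0.05 in edgeR, with -0.86 (SE 0.26, adjusted p = 0.38). Of 13 genes of 2-oxoglutarate and 2-hydroxyglutarate metabolism 6 had a higher and 7 a lower fitted level, with a median of -0.03, and -0.07 to 0.04 when a library was left out. Idh3a, a subunit of isocitrate dehydrogenase, had -0.17 (SE 0.21), and Sdhb, a subunit of succinate dehydrogenase, had -0.14 (SE 0.17).

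**Figure D4:**
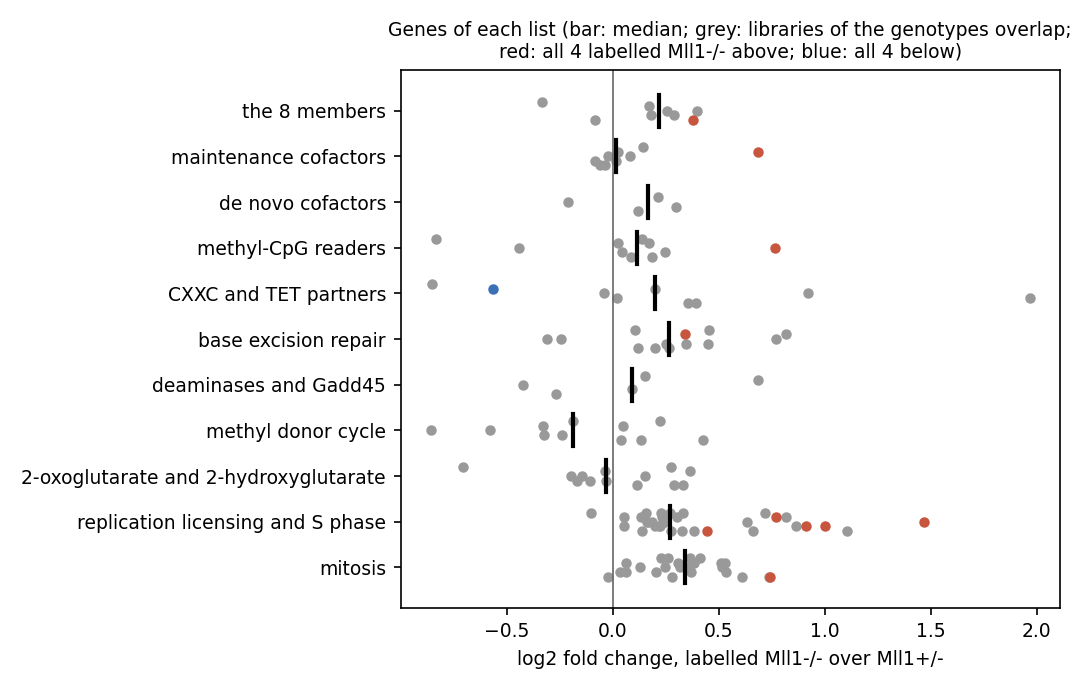
Log2 fold change (x axis, libraries labelled Mll1-/- over those labelled Mll1+/-) of each tested gene of each list, with the median as a bar and genes whose libraries do not overlap between the genotypes in colour. The median is 0.22 for the 8 members, 0.27 for the S phase list and 0.34 for the mitosis list, and no gene shown was called at an adjusted p under 0.1.

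Dnmt1 and Uhrf1 are known to be expressed with the replication machinery, and replication genes were therefore listed apart, without the members. Of 32 genes of replication licensing and S phase 31 had a higher fitted level in the libraries labelled Mll1-/-, with a median log2 fold change of 0.27. None of them was called. An unadjusted p under 0.05 in edgeR with a higher level was found for 8 of 32, compared with 5.4% of all genes tested. The libraries labelled Mll1-/- lay above the controls without overlap for 5 of 32, compared with 3.34% of all genes tested. Those 5 were the helicase subunits Mcm3 with 0.91 (SE 0.20) and Mcm5 with 0.77 (SE 0.20), the licensing factor Cdt1 with 0.45 (SE 0.17), the cyclin Ccne1 with 1.00 (SE 0.35) and the chromatin assembly subunit Chaf1b with 1.47 (SE 0.36). Their adjusted p-values in edgeR were between 0.20 for Mcm3 and 0.50 for Cdt1. In the first mouse set, where sex goes with the genotype, and the second, the differences were 0.73 and 1.03 for Mcm3 and 0.44 and 0.45 for Cdt1. Other genes of the list changed sign between the sets, with 0.82 and -0.76 for Cdc6, 0.58 and -0.31 for Gins2 and 0.65 and -0.26 for Ccne2. Of the abundant genes, Mcm6 had 0.33 (SE 0.19) and Slbp had -0.10 (SE 0.15). Of 24 mitosis genes 23 had a higher fitted level, with a median of 0.34 (0.21 without J_7079), none called and Plk1 without overlap at 0.74 (SE 0.26). Plk1 was 1 of 24 without overlap, compared with 6.28% of all genes tested. Its differences in the first and second set were 0.47 and 0.91, whereas Cenpa had 0.57 and -0.73 and Ccnb2 had 0.48 and -0.48. Top2a had 0.37 (SE 0.16) and Mki67 had 0.13 (SE 0.22). The mean log2 CPM of the S phase list lay between 5.57 and 5.82 in the libraries labelled Mll1-/- and between 5.12 and 5.51 in the controls.

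Dnmt1 followed the S phase list across the libraries, and the share of all genes that do so was not computed. Pearson's r between its log2 CPM and the list mean was 0.93 (exact permutation p = 0.00084, adjusted p = 0.0067 over 8 relations, n = 8) and Spearman's rho was 0.93 (exact permutation p = 0.0022, adjusted p = 0.018). Without J_7079 and J_7100, the 2 libraries farthest from the median of the list mean, r was 0.79. It was 0.98 among the 4 libraries of the first set and 0.89 among those of the second, which are too few to test, and 0.86 among the libraries labelled Mll1-/- and 0.87 among the controls. J_7135 had both the highest list mean (5.82) and the highest Dnmt1 (119 CPM) of all 8 libraries, and r without J_7135 was not computed. Tdg had an r of 0.76 (exact permutation p = 0.027, adjusted p = 0.11) and a rho of 0.67 (exact permutation p = 0.083, adjusted p = 0.33), and r was 0.33 without the same 2 libraries. Tet3 had an r of 0.49 and Uhrf1 of 0.42, with exact permutation p-values of 0.21 and 0.30 and an adjusted p of 0.56 for both. Without the same 2 libraries r was 0.79 for Tet3, as for Dnmt1, and -0.11 for Uhrf1. Within the libraries labelled Mll1-/- and within the controls, r was 0.75 and 0.01 for Tet3 and -0.81 and 0.59 for Uhrf1. The other 4 members had r between -0.35 and 0.17, with adjusted p-values of 0.56 or more (exact permutation). With the list mean as a covariate in edgeR the genotype term of Dnmt1 was -0.05 (SE 0.22, adjusted p = 0.995), compared with 0.38 without it. The list mean itself separates the genotypes, and the part of either in the level of Dnmt1 cannot be told apart.

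**Figure D5:**
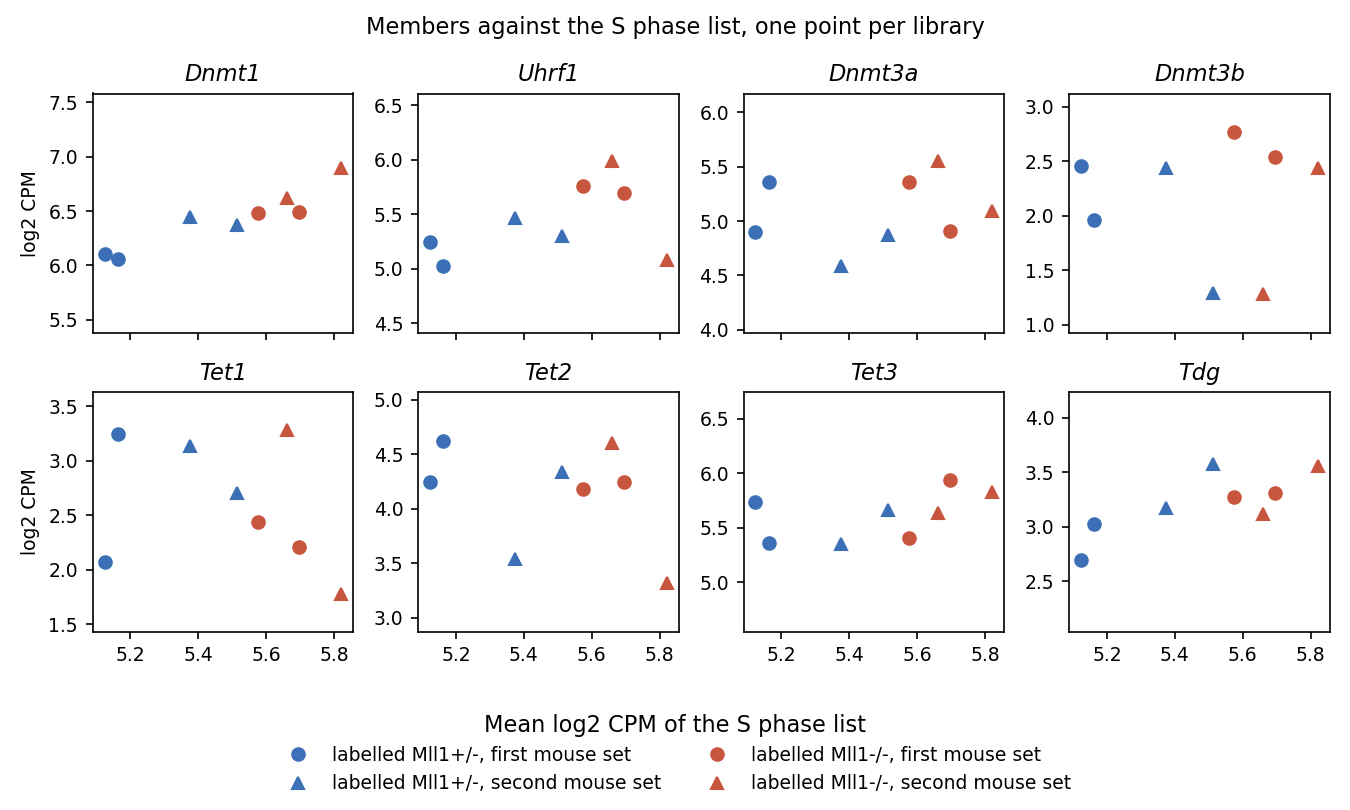
Log2 CPM of each member (y axis, each panel 2.2 log2 units high) against the mean log2 CPM of the S phase list (x axis), 1 point per library. Dnmt1 increases with the list over both genotypes (r = 0.93), and Uhrf1 in J_7135, the library with the highest list mean, is the second lowest of its panel.

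Over the 28 pairs of members, Pearson's r of log2 CPM across the 8 libraries lay between -0.69 (Tet1 and Tet3) and 0.68 (Dnmt1 and Tdg), and it was 0.30 for Dnmt1 and Uhrf1. These values describe 8 libraries that share scaling and depth, and they were not tested. Among 8916 genes with a mean of at least 10 CPM, the genes most like Dnmt1 over the 8 libraries were Pisd (r = 0.98), Knop1 (r = 0.98) and Ddx27 (r = 0.98). Those most like Uhrf1 were Samhd1, Fyn and Zgrf1 with r of 0.93 to 0.95. For Dnmt3a they were 4930453N24Rik, Arid4b and Mcmbp (0.93 to 0.95), and for Dnmt3b Ddx20, Ssr1 and Ctdnep1 (0.91 to 0.98). For Tet1 they were Scp2, Kif3a and Ppp1r9a (0.93 to 0.96), for Tet2 Pnpla6, Ube2z and Appbp2 (0.97), and for Tet3 Yipf3, Sectm1a and Ano10 (0.90 to 0.92). For Tdg they were Ciita, Acp5 and Snrnp25 (0.93 to 0.94). Dnmt1 had 86 genes with an r over 0.9 and Tet2 had 36, whereas the other members had 2 to 13, and no member was among the genes named for another.

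Germline and imprinted genes, many of which are silenced by DNA methylation in adult cells, were mostly near the floor. Of 24 listed genes 8 passed the filter on low counts, of which 2 had a higher and 6 a lower fitted level, with none called. Ddx4, a germ cell helicase, had 215 counts in all libraries together and Dazl, a germ cell RNA-binding protein, had 79. A single library held most counts of Asz1, with 163 of 174, and likewise of H19, with 91 of 99. Snrpn, which passed the filter, had a log2 fold change of 0.99 (SE 0.45, edgeR adjusted p = 0.56). The imprinted growth factor Igf2 had 0 counts in all 8 libraries, which allows up to 0.162 to 0.241 CPM per library. The abundant non-coding RNAs of the list were Kcnq1ot1, with a log2 fold change of -0.22 (SE 0.22, edgeR adjusted p = 0.81), and Xist. The level of Xist differs with the sex of the mouse, which was not labelled and which, by Xist and Ddx3y, goes with the genotype in the first set.

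The 8 members matched 13 promoters of RefSeq (GRCm38.p6). The 250 bases before the start held between 2 CpG, at the outermost start of Dnmt1, and 51 CpG, at Tet2, and the median over 32851 promoters was 6. The words TTTGGCGC and TTTCCCGC, known as E2F sites, were searched on both strands and had no match in these windows of the members. As 1.3% of all promoters held either, no match in 13 windows sets nothing apart. Other forms of the site were not searched, so a lack of E2F sites was not shown. The close form TTTCGCGC stands in a window of Uhrf1 and, on the other strand, in a window of Dnmt1. This form was not among the words searched for. Its share over the members and over all promoters was not counted, so it sets nothing apart.

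Marker sums of several cell types differed in range between the genotype labels, although no gene of these lists was called in edgeR. The summed CPM of the stem cell list lay between 12939 and 19572 in the libraries labelled Mll1-/- and between 25152 and 29934 in the controls, mostly through Olfm4, a stem cell marker, at 12160 and 20741 CPM. Of 15 stem cell genes tested 6 were higher and 9 lower, with 1 higher and 2 lower without overlap. The higher one was Axin2, at 226 against 167 CPM. The summed CPM of 12 stroma and endothelium markers was 52.4 to 123 in the libraries labelled Mll1-/- and 8.33 to 12.1 in the controls. Most of it in the libraries labelled Mll1-/- was Vim, at 72.2 CPM against 3.24 CPM in the controls (edgeR adjusted p = 0.11), and 9 of the 12 genes did not pass the filter on low counts. Of the others, Pecam1 had 4.93 and 4.99 CPM and Pdgfrb had 1.86 and 0.783 CPM (edgeR adjusted p = 0.80), in the same order. Of those below the filter, Col1a2 had the most counts, 65 over all libraries together. The 12 immune markers summed to 5.30 to 14.6 and 12.3 to 18.4 CPM. Goblet cell markers summed to 760 to 1363 and 630 to 840 CPM, with 10 of 12 higher. In the same order, Paneth cell markers summed to 1329 to 2541 and 1965 to 4742 CPM, enterocyte markers to 366 to 408 and 438 to 536 CPM, enteroendocrine markers to 3.68 to 9.50 and 7.30 to 72.3 CPM, and tuft cell markers to 2.96 to 9.27 and 2.51 to 3.29 CPM. The enterocyte sums did not overlap, whereas the other 3 did. Of 8 Paneth cell genes tested 7 were lower, and Mmp7 was higher without overlap at 304 against 148 CPM. Of 8 enterocyte genes tested 7 were lower, and Vil1 was higher without overlap at 179 against 134 CPM. The part of these cells in the levels of the members was not tested.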

How the data were processed

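Per the study's methods and labels, each library held 300 sorted cells of 1 mouse, with 4 mice per genotype. The authors aligned Smart-seq2 reads to mm10 with GSNAP, counted uniquely mapped reads (mapping quality of at least 1, no strand) on Ensembl release 92 genes with featureCounts 1.6.3 and deposited raw counts. A deposited signal table, with counts divided by size factors, gave gene symbols only. Low counts were removed with filterByExpr (minima of 10 counts and 15 over all libraries), and edgeR 4.0.16 in R 4.3.3 fitted a robust quasi-likelihood model on TMM-scaled counts with genotype as its single term. P-values were adjusted by Benjamini-Hochberg over 16445 genes with a threshold of 0.1. Log2 CPM used a prior count of 2. Alternatives used DESeq2 1.42.0 and limma 3.58.1, and tests were tested on simulated data. Exons, shared 31-base words and copies came from GENCODE annotation of GRCm38, and promoters from RefSeq. Figures were drawn with matplotlib 3.10.9.

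The members and the gene lists were chosen with earlier results of these data known. Genes were named by a rule: the members, Kmt2a and Ctnnb1, of each pathway list those called, those without overlap between genotypes and the 2 with the highest mean CPM, and of the cell type lists Lgr5, Olfm4, Epcam, Ptprc and genes at 0. Other genes were named after their values were seen.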

Additional observations from a re-analysis of the deposited data

How the results depend on the processing

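No member was called under any of 17 alternatives (other scalings, filters and tests, a block of the mouse sets, covariates and each library left out), with adjusted p-values of Dnmt1 of 0.30 to 0.995 in edgeR, DESeq2 and limma. The sign was kept by Dnmt3a, Dnmt3b, Uhrf1, Tet1 and Tet3. With the S phase covariate the log2 fold change was -0.055 for Dnmt1, -0.50 for Tdg and 0.45 for Tet2, and with the Xist covariate it was 0.022 for Tet2, the causes of which were not tested. Leaving out each library gave 0.28 to 0.45 for Dnmt1, 0.28 to 0.55 for Uhrf1, 0.17 to 0.45 for Dnmt3a, 0.05 to 0.49 for Dnmt3b, -0.71 to -0.15 for Tet1, -0.27 to 0.12 for Tet2, 0.09 to 0.27 for Tet3 and 0.04 to 0.35 for Tdg. The unadjusted p of Dnmt1 in edgeR was 0.0078 with the block of mouse sets, and over 0.05 without J_7079, J_7100 or J_7135. The permutation difference of Dnmt1 was 0.37 with upper quartile scaling, where the exact p was 0.057. All genes called numbered 14 and became 8 with upper quartile scaling, 47 with at least 1 count, 34 with at least 10 counts in every library, 517 with DESeq2, 103 with limma-voom, and 0 with the block, the Xist or the S phase covariate (1642, 1625 and 1008 at an unadjusted p under 0.05 in edgeR), and 0 to 45 with a library left out, 45 without J_7135. Without length division the order of levels was Dnmt1, Tet3, Uhrf1, Dnmt3a, Tet2, Tdg, Tet1, Dnmt3b. No paired analysis was possible because the labels give no replicate numbers, and numbers were given in accession order only. Depth limits Dnmt3b and Tet1, with 35 and 58 counts in their lowest libraries.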
